A study of Mus musculus with 2 samples.

Results

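A set of 9 genes that mark the uncommitted blood progenitor and are shut off when a thymocyte commits to the T lineage were followed by every probe in thymocytes deficient in Bcl11b. They were chosen by name: Kit, Lyl1, Tal1, Lmo2, Hhex, Mef2c, Cd34, Gfi1b and Cd44. An array feature was taken as a member where its printed gene name, or the current symbol found through its accession or a synonym, was one of these 9 of 27594 names, which gave 13 of 41174 probes. The study hybridised DP thymocytes, the CD4+CD8+ stage, from Bcl11bF/FCD4Cre/Tcra-/- mice (called deficient here) against DP thymocytes of TCRa-/- mice (called control) on 2 arrays, each with 1 sample of either genotype. Both genotypes lack Tcra, so neither can form an alpha beta T cell receptor and thymocytes stop before positive selection. Cre is driven by regulatory elements of the CD4 gene, active from around the DP stage, and by the labels only the deficient mice carry Cre, so an effect of Cre and one of Bcl11b loss cannot be told apart. On each array the dye was Cy5 for the deficient and Cy3 for the control sample, so a bias of the dye and the genotype cannot be told apart either. The question was the role of Bcl11b in DP cells before selection. The labels call the 2 arrays biological replicates without the number of mice behind each. The p-values rest on the spread between these 2 arrays and on a spread that limma borrows from all kept probes. They cannot be read as a measure of the spread between mice.

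As background, thymus-seeding progenitors carry the stem cell factor receptor Kit, the hyaluronan receptor Cd44 and the sialomucin Cd34, together with a stem and progenitor transcription factor network. In that network the bHLH factors Tal1 and Lyl1 pair with E proteins, and the LIM-only protein Lmo2 bridges them to GATA factors through Ldb1. Hhex is a homeobox factor, Mef2c a MADS box factor and Gfi1b a zinc-finger repressor of erythroid and megakaryocytic cells. In normal thymocyte development these genes go down as Bcl11b comes on, before the DP stage, and Lyl1, Tal1 and Lmo2 are known as oncogenes when they stay on in T cells.

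Of the 9 genes, Lyl1, Cd44, Cd34 and Kit read higher in deficient than in control DP thymocytes on both arrays and were well above background in both genotypes. Lyl1 was the furthest, with a log2 ratio of 2.43 ± 0.39 (mean and limma SE, n = 2 arrays). Lmo2 read lower in deficient cells on both arrays, by a log2 ratio of -0.25 ± 0.07. Tal1 was not above background in any sample, and Mef2c, Gfi1b and Hhex lay at or close to background. No member passed an adjusted p of 0.05 in limma's moderated test, and neither did any other probe of the array: 0 of 21538 probes, or 0%, were called in either direction.

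The promoter windows of the genes that read higher on both arrays are shown because these 4 genes read in the same direction. Each window is the 250 bases before the RefSeq gene start on GRCm38.p6, read in the direction of the gene, and capitals mark a match to a searched motif. The Lyl1 window lies at chr8:84701207-84701456 on the plus strand, the Cd44 window at chr2:102901666-102901915 on the minus strand, the Cd34 window at chr1:194938571-194938820 on the plus strand and the first of the 2 Kit windows at chr5:75574737-75574986 on the plus strand.
Lyl1: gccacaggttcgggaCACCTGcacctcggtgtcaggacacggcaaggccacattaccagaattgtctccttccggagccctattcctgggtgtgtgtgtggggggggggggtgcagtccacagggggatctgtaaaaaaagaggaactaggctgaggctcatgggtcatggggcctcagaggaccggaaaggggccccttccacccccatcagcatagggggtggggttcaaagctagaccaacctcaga
Cd44: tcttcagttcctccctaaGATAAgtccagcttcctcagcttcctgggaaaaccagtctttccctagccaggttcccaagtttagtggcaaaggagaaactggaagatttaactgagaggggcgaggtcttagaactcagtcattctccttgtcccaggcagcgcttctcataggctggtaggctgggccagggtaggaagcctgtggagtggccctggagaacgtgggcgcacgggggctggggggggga
Cd34: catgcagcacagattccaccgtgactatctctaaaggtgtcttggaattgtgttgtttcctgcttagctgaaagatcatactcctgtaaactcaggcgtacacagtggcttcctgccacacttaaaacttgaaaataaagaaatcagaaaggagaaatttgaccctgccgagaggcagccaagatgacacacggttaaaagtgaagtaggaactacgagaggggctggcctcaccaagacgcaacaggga
Kit: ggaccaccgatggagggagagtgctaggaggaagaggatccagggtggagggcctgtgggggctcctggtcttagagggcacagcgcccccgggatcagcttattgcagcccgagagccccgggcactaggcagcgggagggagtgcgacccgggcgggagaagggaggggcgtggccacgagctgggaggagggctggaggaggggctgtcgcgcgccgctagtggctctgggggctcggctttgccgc
In all, 5 motifs were searched on both strands with no overlap between them: the E-boxes CAGCTG and CACCTG, the GATA motif GATAA, the RUNX motif TGTGGT and TGACCA, which human BCL11A, a relative of Bcl11b, binds. The Lyl1 window held CACCTG 235 bases before the start, and the Cd44 window held GATAA 232 bases before it. The Cd34 and Kit windows held none of the 5 motifs. Over the 12 windows found for 8 of the 9 genes, 0 held CAGCTG, 1 CACCTG, 4 GATAA, 0 TGTGGT and 1 TGACCA. Over all 32851 windows of the same length these motifs stood in 13.0%, 17.2%, 22.6%, 14.0% and 11.4%. GC content was 60.0% in the Lyl1 window, 56.4% in that of Cd44, 46.4% in that of Cd34 and 70.8% in that of Kit, against a median of 52.4% over all windows. These matches describe the letters of the windows and are not evidence of binding.

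The targeted gene was read first as a check of the labels. One Bcl11b probe (A_51_P171772, mm8 chr12) had processed signals of 6095 and 3573 in deficient samples 1 and 2, against 15395 and 15984 in control samples 1 and 2. The other (A_52_P925277) had 5868 and 6924 in deficient samples, against 14964 and 8190 in control samples. Log2 ratios were -1.37 and -2.16 at the first probe and -1.40 and -0.28 at the second, so both were lower in each deficient sample, with signal left in all. Where the deleted part of Bcl11b lies relative to these probes is not stated in the labels. Against the labelled cell type, the DP marker genes Cd4, Cd8a, Cd8b1, Rag1, Rag2, Ptcra and Cd1d1 were well above background in every sample. RNA of a whole population cannot tell fewer cells of a type from less RNA per cell.

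Whether a gene was on was judged by 2 measures for each channel of each array. One is Agilent's flag for a spot well above background. The other counts the array's 153 negative control spots, designed to match no transcript, whose mean signal lay below the probe. A probe was kept for testing where most of its spots carried that flag on both arrays in at least 1 of the genotypes. Of the 13 member probes 7 were kept, 1 each for Kit, Lyl1, Lmo2, Hhex and Cd34 and 2 for Cd44, among 21538 kept in all. The processed signals below are Agilent's background-subtracted, dye-normalised intensities, in scanner units, and they are normalised within each array and not between arrays. Log2 ratios are deficient over control after normexp background correction and loess within each array, which compress the ratios of dim probes, so ratios of the processed signals are given beside them.

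**Figure D1:**
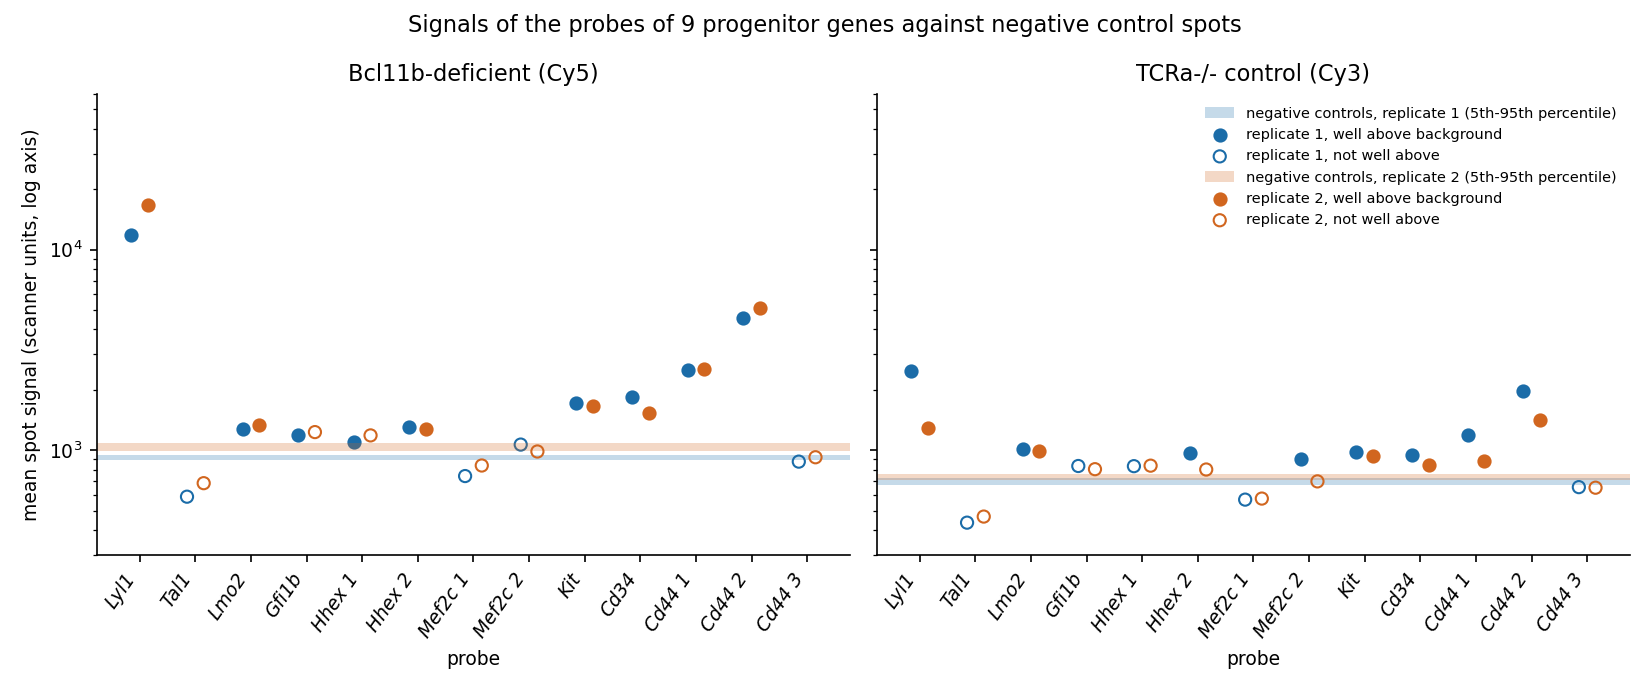
Mean spot signal (scanner units, log axis, before background subtraction) of each of the 13 member probes in the deficient samples (Cy5, left) and the control samples (Cy3, right), with replicate 1 in blue and replicate 2 in orange. Filled points were well above background by Agilent's flag, open points were not, and the bands span the middle 90% of 153 negative control spots. The Lyl1 probe reads 11834 and 16700 in the deficient samples and 2469 and 1295 in the control samples, while the Tal1 probe lies below the band in each panel.

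Lyl1, the bHLH relative of Tal1, was measured by 1 probe (A_51_P143190, mm8 chr8:87594737-87594796, plus strand). Its processed signals were 2789 and 3584 in deficient samples 1 and 2, against 773 and 282 in control samples 1 and 2. On each array the deficient value lay above the control value. Control sample 2 read lower than control sample 1, in signals that are not normalised between arrays. The log2 ratios were 1.72 and 3.14, or 3.29-fold and 8.79-fold, and the processed signals gave 3.61-fold and 12.7-fold. The mean of 2.43 ± 0.39 ranked 8 of 21538 kept probes from the highest, with an adjusted p of 0.104 in limma. Lyl1 was the 1 member probe of 7 that was at least 2-fold higher on both arrays, as were 0.673% of all kept probes. The Lyl1 signal in control samples exceeded all 153 negative controls on both arrays, so Lyl1 RNA was also detected in the control samples. Which cells of these samples carried it was not tested.

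Cd44, the hyaluronan receptor that early progenitors and later activated T cells and NK cells carry, was measured by 3 probes on chromosome 2. The probe at mm8 chr2:102613589-102613648 on the minus strand (A_52_P229536) had processed signals of 1219 and 1309 in deficient samples, against 701 and 430 in control samples. The probe 1240 bases away (A_52_P523459, chr2:102612349-102612408) had 437 and 397 in deficient samples, against 229 and 74.5 in control samples. At each of these probes the deficient sample lay above the control sample on each array. Log2 ratios were 0.66 and 1.22 at the first and 0.66 and 1.21 at the second, with means of 0.94 ± 0.17 and 0.94 ± 0.16 and an adjusted p of 0.108 for each in limma. After normexp and loess the 2 probes thus gave nearly the same ratio on each array, and they share these 4 samples. On the processed signals the log2 ratios were less alike, at 0.80 and 0.93 on replicate 1 and 1.61 and 2.43 on replicate 2. Their means were 1.20 and 1.68. The remaining Cd44 probe (A_51_P407053, chr2:102635102-102635161), 21513 bases further, was not well above background in any sample and exceeded at most 4 of the 153 negative controls. Cd44 on these arrays therefore rests on the first 2 probes, and the third was not well above background in either genotype.

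The second Cd44 probe and the Kit probe were each printed as 10 spots per array, none of them marked as an outlier. All 10 spots of the Cd44 probe read higher in the deficient channel on each array, with log2 ratios of 0.57 to 0.73 (median 0.66, SD 0.05) on replicate 1 and of 1.05 to 1.34 (median 1.22, SD 0.10) on replicate 2. The ranges of the 2 arrays did not overlap, so the difference between them was larger than the spread between spots of an array. Spots of one array share the same labelled RNA and are not replicates of the genotype. In control sample 2, 8 of the 10 Cd44 spots were well above background, and in each other sample all 10 were.

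**Figure D2:**
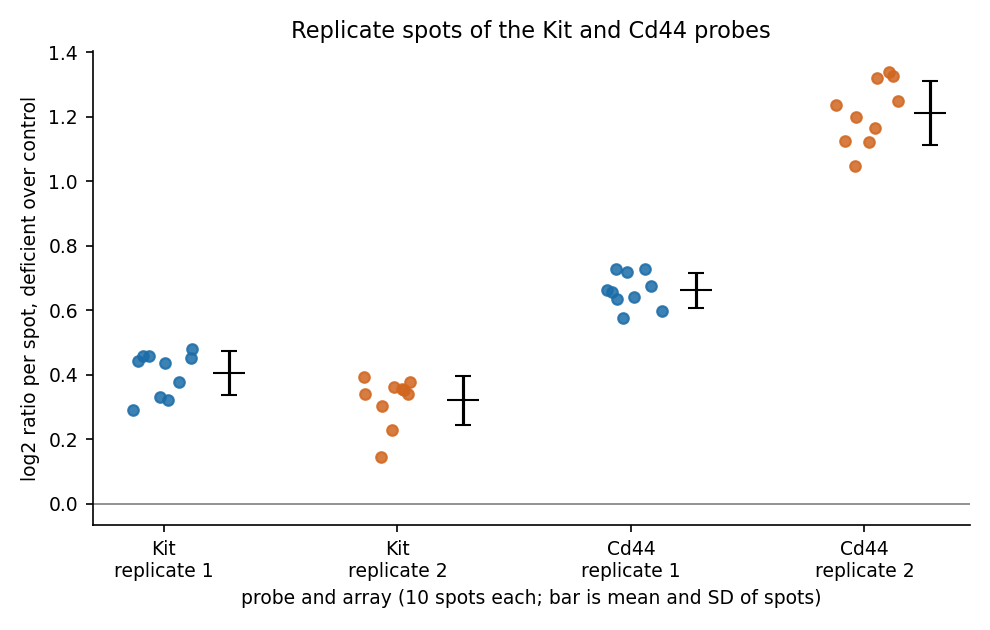
Log2 ratio of deficient over control at each of 10 spots of the Kit probe and of the Cd44 probe A_52_P523459 on each array, with the mean and SD of the spots drawn beside the points. All 40 spots lie above 0; the Cd44 spots of replicate 2 (1.05 to 1.34) lie above those of replicate 1 (0.57 to 0.73), and the Kit spots of both arrays overlap.

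Kit, the stem cell factor receptor, was measured at mm8 chr5:75937959-75938018 on the plus strand (A_51_P355906). Its processed signals were 211 and 158 in deficient samples 1 and 2, against 129 and 98.6 in control samples 1 and 2. On each array the deficient sample lay above the control sample, and all 4 samples exceeded every negative control. Log2 ratios over the 10 spots were 0.29 to 0.48 (median 0.44, SD 0.07) on replicate 1 and 0.14 to 0.39 (median 0.35, SD 0.08) on replicate 2. The mean of 0.36 ± 0.07 had an adjusted p of 0.117 in limma, and 9.05% of kept probes had a higher mean. The processed signals gave 0.71 and 0.68, or 1.64-fold and 1.60-fold.

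Cd34, the sialomucin of progenitors and endothelium, was measured at mm8 chr1:196661922-196661981 on the plus strand (A_51_P204740). Its processed signals were 235 and 127 in deficient samples, against 106 and 54.4 in control samples. The deficient sample lay above the control sample on each array, and each sample exceeded every negative control. Log2 ratios were 0.64 and 0.47, with a mean of 0.55 ± 0.08 and an adjusted p of 0.102 in limma. On the processed signals they were 1.15 and 1.22, or 2.21-fold and 2.33-fold, which places Cd34 beside Lyl1 among the 2 member probes at least 2-fold higher on both arrays by that measure, as were 1.74% of all kept probes. With the background taken from the negative controls the same 2 probes passed that size, against 1.41% of all kept probes. It was also the one member probe with an adjusted p under 0.05 under that correction (log2 ratio 1.10, adjusted p = 0.0409 in limma, with 2.27% of kept probes called).

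Lmo2, the bridging protein, read lower in deficient cells. Its probe (A_51_P223686) is listed at mm8 chr2:103777023-103781736 on the plus strand, a span of 4714 bases. Processed signals were 87.4 and 70.3 in deficient samples, against 131 and 110 in control samples. The deficient sample thus lay below the control sample on each array. All 4 samples exceeded every negative control. Log2 ratios were -0.25 and -0.24, with a mean of -0.25 ± 0.07 and an adjusted p of 0.154 in limma, and 12.9% of kept probes had a lower mean. On the processed signals they were -0.58 and -0.65.

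Hhex, the homeobox factor, was measured by 2 probes that lie 3248 bases apart on chromosome 19. The kept probe (A_52_P528600, mm8 chr19:37505623-37505682) had processed signals of 130 and 73.1 in deficient samples, against 142 and 34.5 in control samples. The log2 ratio was below 0 on replicate 1 (-0.088) and above 0 on replicate 2 (0.20). The mean of 0.055 ± 0.10 had an adjusted p of 0.749 in limma. This probe was kept through the deficient channel alone, since its control signal was well above background on 1 of 2 arrays. The other probe (A_51_P265824, chr19:37502375-37502434) had 40.6 and 34.9 in deficient samples, against 49.7 and 44.4 in control samples, and was well above background in deficient sample 1 only. It exceeded every negative control in all 4 samples, so for Hhex the flag and the negative controls differ.

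Gfi1b, the repressor that recruits the LSD1 and CoREST complex, was measured at mm8 chr2:28431471-28431530 on the minus strand (A_51_P370678). Its processed signals were 65.0 and 43.6 in deficient samples, against 46.6 and 31.3 in control samples. The log2 ratio of processed signals was 0.48 on each array, and that from normexp and loess was 0.086 and 0.12. The probe was well above background by its flag in deficient sample 1 and in no other sample, and it did not enter the test. It exceeded all 153 negative controls in all 4 samples, so the 2 measures differ here as for Hhex. No bound on the fold is given, because the deficient signal was not well above background in sample 2, and these signals do not tell the genotypes apart.

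Mef2c, the MADS box factor, was measured by 2 probes 85631 bases apart on chromosome 13. The probe at mm8 chr13:84141092-84141151 (A_51_P135802) had processed signals of 43.2 and 12.6 in deficient samples, against 92.1 and 11.9 in control samples, and was well above background in control sample 1 only. The other probe (A_52_P282110, chr13:84055461-84055520), tied to Mef2c by the name in the array file alone, was not above background in any sample and exceeded at most 2 of 153 negative controls. The first probe exceeded all 153 negative controls in sample 1 of each genotype, and at most 3 of them in sample 2, so by that measure deficient sample 1 differed from its flag. No fold is given.

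Tal1, the bHLH partner of Lmo2 in blood stem cells, was measured at mm8 chr4:114569550-114569610 (A_51_P255853), by the name in the array file. Its processed signals were 9.62 and 13.3 in deficient samples, against 13.0 and 12.9 in control samples, none well above background. Its mean spot signal of 586 and 684 in deficient samples and 435 and 466 in control samples exceeded at most 1 of the 153 negative controls in any sample. The log2 ratios of 0.24 and 0.50 from normexp and of -0.43 and 0.040 from the processed signals had no common sign and compare signals that were not above background. Re-expression of Tal1 was not detectable by this probe.

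**Figure D3:**
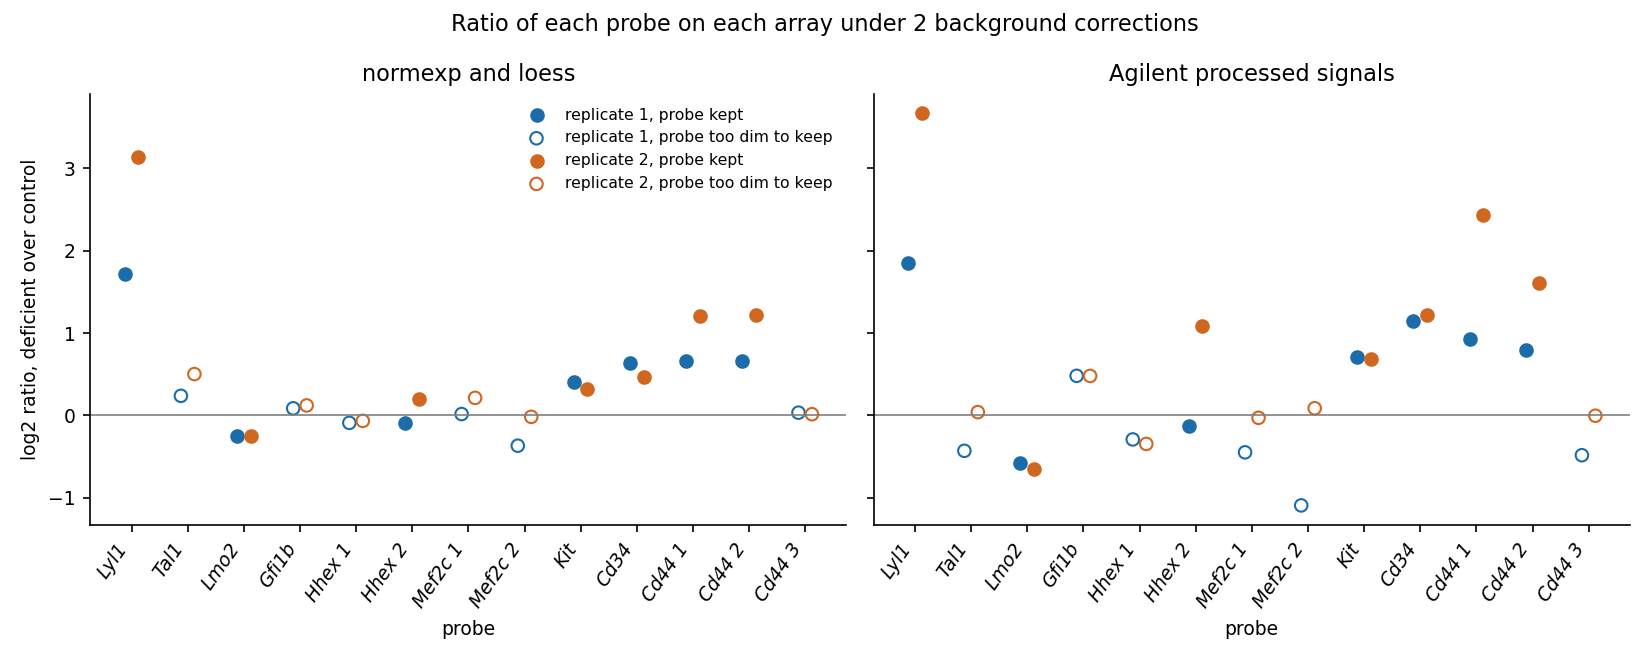
Log2 ratio of deficient over control for each of the 13 member probes on replicate 1 (blue) and replicate 2 (orange), after normexp and loess (left) and from Agilent's processed signals (right). Filled points are the 7 kept probes and open points the 6 too dim to keep. Lyl1, Kit, Cd34 and Cd44 probes 1 and 2 lie above 0 and Lmo2 below 0 on both arrays in each panel, and the ratios of Cd34 grow from 0.64 and 0.47 on the left to 1.15 and 1.22 on the right. Probes of a gene are numbered by position.

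Over the 7 kept member probes, 5 read higher on both arrays, against 36.7% of all kept probes, and 1 read lower on both, against 36.9%. At an unadjusted p under 0.05 in limma, 5 of 7 member probes were higher, against 14% of all kept probes, and 1 was lower, against 13%. Since 27% of all kept probes, 5815 in number, reached that unadjusted p and 0 an adjusted one, the member counts do not show a call. Other settings of limma called a few: with median centring in place of loess Lyl1 had an adjusted p of 0.0496 (4.51% of kept probes called), and a fit of the separate channels gave 0.0418 for Lyl1 and 0.0494 for the Cd44 probe A_52_P229536 (5.72% called). At 1 probe a gene, 4 of the 6 measured genes read higher on both arrays and 1 lower, with a median log2 ratio of 0.46, against 36.4% higher, 38.5% lower and a median of -0.0035 over 14920 genes. The probes entered this count only where they were detected, and 3 of the 9 genes are not in it.

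**Figure D4:**
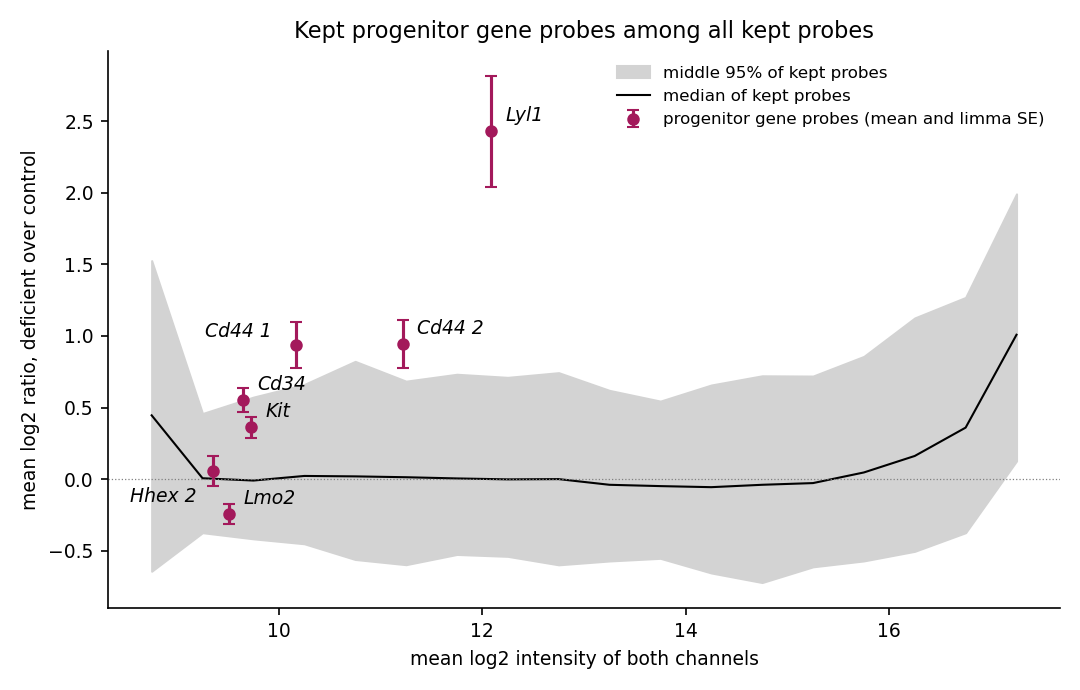
Mean log2 ratio of deficient over control (y axis, 2 arrays, bars are limma SE) against mean log2 intensity of both channels (x axis) for the 7 kept member probes, over the median and the middle 95% of all 21538 kept probes in bins of intensity. Lyl1 at 2.43 and both Cd44 probes at 0.94 lie above the grey band, while Cd34 at 0.55, Kit at 0.36, Lmo2 at -0.25 and Hhex at 0.055 lie inside it. In the intensity bins that hold members the median of all probes lies between -0.0096 and 0.023.

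The progenitor genes were set beside other genes known from uncommitted progenitors. Of 26 such genes 25 were on the array and 14 had a kept probe, of which 7 read higher and 3 lower on both arrays, with a median log2 ratio of 0.20. Fcer1g, the gamma chain of Fc receptors, read at 0.83 ± 0.26 (0.37 and 1.29 on replicates 1 and 2), the homeobox gene Hoxa7 at 0.45 ± 0.07 and Cd93 at 0.44 ± 0.09, while Igf1r read at -0.34 ± 0.14 (-0.11 and -0.57) and Ly6a at -0.21 ± 0.09. Gata2, the GATA factor of stem cells and mast cells, was not above background in deficient samples and dim in control samples, at 68.9 and 62.5. Its mean log2 ratio of -0.12 ± 0.07 had an adjusted p of 0.342 in limma. These signals do not tell the genotypes apart, so no bound is given. Spi1, Erg, Flt3, Hlf, Hoxa9, Hoxa10, Mecom, Meis1 and Prom1 were not above background in either genotype. By Agilent's flag of the brightest probe, the myeloid factor Spi1 and the receptor Flt3 were thus undetected in samples in which Lyl1, Kit and Cd34 were detected. In the same list Fcer1g, Tyrobp, Cd93 and Csf2rb were well above background in every sample. Which cells carried these RNAs was not tested.

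Partners of Lyl1 and Lmo2 read in both directions. Of 14 measured genes of the LMO2 and bHLH complexes, Lyl1 among them, 5 read higher and 7 lower on both arrays, with a median of 0.020. Lmo4, a LIM-only relative of Lmo2, read at 1.32 ± 0.11, with 14633 and 17744 in deficient samples against 6464 and 6066 in control samples. Gata3, the GATA factor of T cells, read at 0.65 ± 0.08. The E protein gene Tcf3 read at -0.48 ± 0.11, the adaptor Ldb1 at -0.33 ± 0.08 and its partner Ssbp2 at -0.28 ± 0.10. With median centring Ssbp2 turned to 0.21, while Ldb1 lay at -0.036 and Tcf3 at -0.13. None had an adjusted p under 0.05 in limma, and Tal2 and Ldb2, like Tal1, were not above background.

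Around Kit, 18 of 20 signalling genes were measured, with 11 higher and 4 lower on both arrays and a median of 0.20. The kinase Lyn read at 0.79 ± 0.24 (0.37 and 1.22 on replicates 1 and 2), the PI3 kinase subunit Pik3cd at 0.73 ± 0.12 and the adaptor Sh2b3, a brake on cytokine receptors, at 0.61 ± 0.13. Stat5a read at -0.46 ± 0.13, Stat5b at -0.28 ± 0.11 and the inhibitor Spred1 at -0.21 ± 0.10. With median centring Stat5b turned to 0.25, while Stat5a lay at -0.21 and Spred1 at -0.077. On replicates 1 and 2 the ratios were -0.67 and -0.25 for Stat5a, -0.45 and -0.11 for Stat5b, and -0.35 and -0.066 for Spred1. The ligand Kitl was not above background in either genotype.

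Gfi1, a relative of Gfi1b, was listed with the corepressors that both recruit, and all but Hdac2 were kept. Of these 9 measured genes 2 read higher and 5 lower, with a median of -0.24. Gfi1 itself was among the lower ones, at -0.25 ± 0.07. Rcor1 (CoREST) read at -0.46 ± 0.09, Kdm1a (LSD1) at -0.35 ± 0.10 and Hdac1 at -0.26 ± 0.09, against 0.19 ± 0.10 for Ehmt2 and 0.11 ± 0.09 for Rcor3. With median centring in place of loess, Kdm1a and Hdac1 turned to 0.070 and 0.19, and Rcor1 lay at -0.056. The list of the MEF2 family and class IIa HDACs also holds Mapk7 and Cabin1, which belong to neither. Of its 8 measured genes 1 read higher and 4 lower, with a median of -0.10. Hdac4 read at 0.35 ± 0.17 (0.051 and 0.64 on replicates 1 and 2). Mapk7 read at -0.43 ± 0.09, Mef2d at -0.40 ± 0.13 and Hdac7 at -0.19 ± 0.10. Mef2d and Hdac7 also turned, to 0.18 and 0.33, with median centring, and Mapk7 lay at -0.12.

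Around Cd44, 9 of 13 genes of its ligands, their enzymes and its cytoskeletal linkers were measured, with 2 higher, 3 lower and a median of 0.0051. The linkers Nf2 and Ezr read at 0.26 ± 0.11 and 0.22 ± 0.08, with Ezr at -0.031 from the processed signals. The hyaluronidase gene Hyal2 read at -0.17 ± 0.10 (0.071 with median centring), Mmp9 at -0.16 ± 0.09 and the hyaluronan synthase gene Has1 at -0.10 ± 0.07. Of 22 genes listed around commitment and beta selection, all measured, 9 read higher and 9 lower, with a median of 0.070. The targeted gene Bcl11b is in this list and among the 9 lower. Zbtb7b, a factor of later CD4 cells, was not above background in control samples and at least 2.69-fold higher in deficient ones (adjusted p = 0.0929 in limma). Notch1 read at 0.83 ± 0.08 and its target Dtx1 at 0.69 ± 0.07, while Cd3g read at -0.61 ± 0.07 (-0.048 with median centring) and Rag2 at -0.57 ± 0.10.

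**Figure D5:**
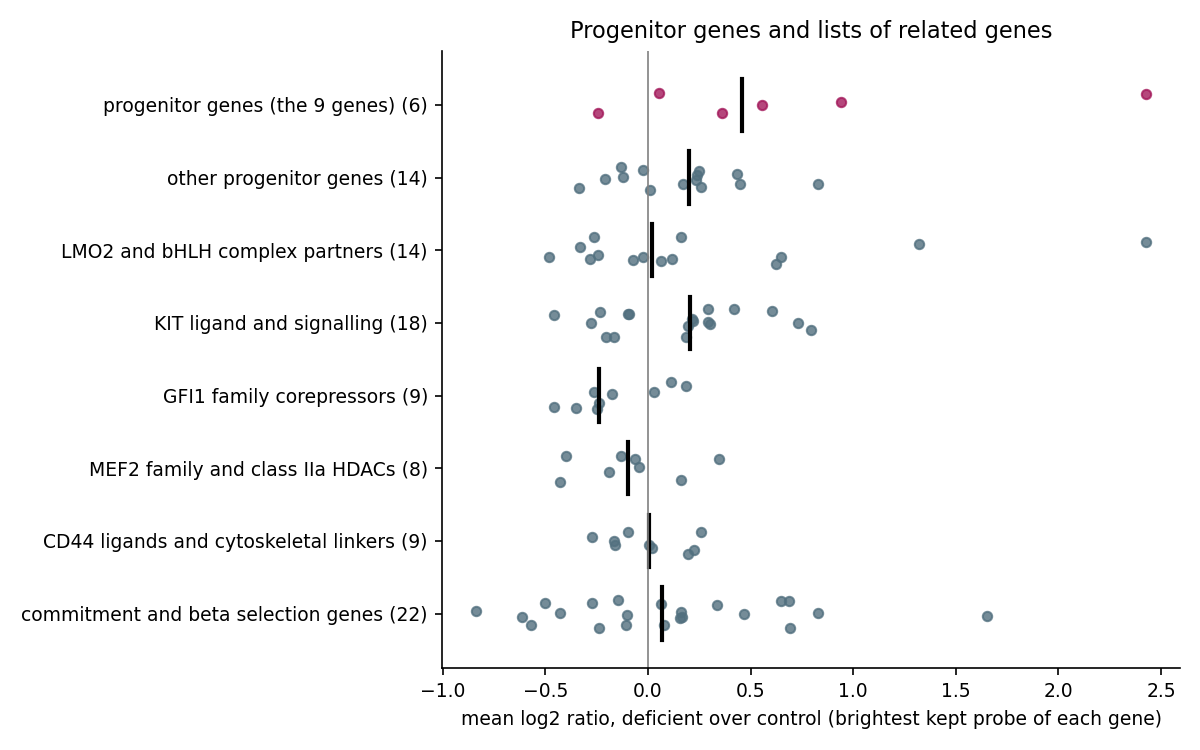
Mean log2 ratio of deficient over control (x axis, mean of 2 arrays) of each measured gene in the list of the 9 progenitor genes (top, 6 measured) and in 7 lists of related genes, by its brightest kept probe; the number of measured genes stands after each name and the black bar is the median. The progenitor genes have a median of 0.46, and the list of GFI1 family corepressors, which includes Gfi1 itself, one of -0.24. Lyl1 stands in the first list and among the LMO2 and bHLH complex partners.

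Markers of other cells that carry these progenitor genes were read in the same samples. Early thymocyte (DN) markers, which include Kit and Cd44, summed to processed signals of 3321 and 2876 in deficient samples, against 1742 and 951 in control samples. Of these sums Cd44 gave 1219 and 1309 in deficient samples, against 701 and 430 in control samples. Kit gave 211 and 158 against 129 and 98.6. Of 7 measured DN genes 6 read higher on both arrays, Kit and Cd44 among them, against 36.4% of all measured genes. The sums and the count are thus not separate from these 2 members. The interleukin receptor gene Il7r was the highest of the DN markers at 1.60 ± 0.09, and Flt3 was not above background. DP markers summed to 170343 and 149098 in deficient samples, against 215936 and 184003 in control samples. Of these 8 genes 6 read lower on both arrays, against 38.5% of all measured genes, and 2 higher. Cd8b1 was the highest at 0.48 ± 0.07, with 0.072 from the processed signals. The part of DN and DP thymocytes in the results for Kit and Cd44 was not tested.

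NK and innate lymphoid markers, whose cells carry Cd44, summed to 12708 and 14049 in deficient samples, against 5416 and 4768 in control samples. Of 9 measured genes 8 read higher on both arrays, with Klrb1c at 2.87 ± 0.25, and Klrk1 and Ncr1 were not above background in the control samples. Macrophage and dendritic cell markers summed to 41046 and 38497 in deficient samples, against 39734 and 20526 in control samples. Control sample 2 had the lowest sum of these markers and also of the DN, NK, mast cell, megakaryocyte, endothelial, erythroid and stromal markers. The kept probes of Lyl1, Cd44, Kit, Cd34 and Hhex were also lowest in that sample. These signals are not normalised between arrays. Lyz2 had ratios of 0.31 and 1.75 and Cst3 of -0.28 and -0.43, with Cst3 at 0.082 after median centring. Of 8 measured macrophage and dendritic cell genes 4 read higher and 2 lower, Clec9a was not above background in either genotype, and the part of these cells in the ratios of Lyl1 and Cd44 was not tested.

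Mast cells express Kit, and their markers summed to 644 and 595 in deficient samples, against 601 and 450 in control samples. Of 10 genes, Fcer1a, Ms4a2, Mcpt1, Mcpt4 and Tpsab1 were not above background in either genotype. The protease genes Cma1 and Tpsb2 were well above background in all samples, with 81.2 and 89.7 in deficient samples against 75.5 and 78.2 in control samples for Cma1, and 71.2 and 75.6 against 84.6 and 93.0 for Tpsb2. Cpa3, which early thymocytes also express, read at 0.37 ± 0.07 and Mitf at -0.24 ± 0.08, and the part of mast cells in the ratio of Kit was not tested. Megakaryocyte and platelet markers summed to 1129 and 1430 in deficient samples, against 782 and 776 in control samples. Of these Pf4 read at 1.43 ± 0.25 and Itga2b at -0.20 ± 0.07, and Gp1ba, Gp9 and Ppbp were not above background. Endothelial markers, whose cells carry Cd34, summed to 1043 and 931 in deficient samples, against 772 and 627 in control samples. Pecam1 read at 0.71 ± 0.08 and Esam at -0.14 ± 0.07, Tek and Emcn were not above background in either genotype, and Cdh5 was not above background in the control samples. The part of endothelial cells and of megakaryocytes in the ratio of Cd34 was not tested.

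Erythroid markers summed to 24687 and 43851 in deficient samples, against 40112 and 10220 in control samples, with the higher sum in the control sample on replicate 1 and in the deficient sample on replicate 2, and Klf1 was not above background. B cell markers summed to 5273 and 3862 in deficient samples, against 8208 and 4920 in control samples, with 5 of 8 lower on both arrays and Vpreb1 at -0.87 ± 0.07. Stromal and thymic epithelial markers summed to 10695 and 3656 in deficient samples, against 11147 and 2291 in control samples, with Col1a1 at 0.85 ± 0.21 (0.48 and 1.21 on replicates 1 and 2) and Epcam at -0.41 ± 0.07.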

How the data were processed

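The arrays are mouse 2-colour Agilent oligonucleotide arrays with 45018 spots, 43379 of them not controls. Per the labels, trizol-extracted RNA was column-purified, amplified linearly and dye-labelled. Per the submitters' processing notes and the file headers, spot values came from Agilent Feature Extraction 9.5.3.1 as run by the authors. Uncorrected intensity is what the deposited mean and local background signals hold. Processed signals, as deposited, are intensity values after background subtraction, detrending and dye normalisation. The deposited value table states no unit and equals the log10 ratio of processed Cy5 over Cy3 in the array files. Probe positions are those printed in the files, on mm8.

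From the mean signals, normexp correction (offset 50), loess within arrays with weight 0 for controls and averaging of a probe's spots were computed with limma 3.58.1 in R 4.3.3. Flagged spots, 108 and 116, were left out. Probes took current symbols from a RefSeq gene table by accession (24496), symbol (6234) or synonym (2378), and 8066 kept the file's name. limma's moderated test set the mean of 2 log2 ratios against 0 (1 residual degree of freedom, prior 2.46 degrees of freedom and SD 0.117), with Benjamini-Hochberg adjustment over 21538 kept probes at a threshold of 0.05. The moderated test alone was run on simulated log2 ratios with the fitted spread, and the steps before it were not simulated. Array ratios correlated at 0.63 over kept probes, as a description. The number of arrays limits the precision.

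A bound for a gene not above background in one genotype sets the bright genotype's mean, from channel values after loess and Aquantile, against the dimmest detected signal. It is open to dye bias. Lists give each gene by its brightest kept probe, and the text names up to 3 genes per direction with the same sign on both arrays, 1 per direction for markers, and Bcl11b. Members and lists were chosen with earlier results of these data known. Alternatives were other background corrections, offset 0, other centring, other filters, the brightest probe of a gene, a separate-channel fit, the deposited value table and leaving out each array. Promoter windows come from RefSeq (GRCm38.p6) for 8 of 9 genes. Lmo2 promoter sequence was not used here.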

Additional observations from a re-analysis of the deposited data

How the results depend on the processing

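Of 82 values of the kept member probes under the alternatives tried, 81 kept their direction. The exception was Hhex, at -0.088 without replicate 2 and 0.20 without replicate 1. Part of this count was fixed beforehand. Other filters, the brightest probe and the separate-channel fit leave a probe's log2 ratio unchanged. The deposited value table repeats the ratios of the processed signals. Leaving out an array cannot turn a probe with the same sign on both. Only the other background corrections, offset 0 and other centring could turn such a probe. Log2 ratios ranged from 2.43 to 2.76 for Lyl1, 0.55 to 1.18 for Cd34, 0.36 to 0.70 for Kit and -0.61 to -0.24 for Lmo2 over the alternatives with both arrays. They ranged from 0.94 to 1.20 and from 0.93 to 1.68 for the Cd44 probes A_52_P229536 and A_52_P523459. Member probes called by limma numbered 0 as reported, 1 with the background from negative controls (Cd34), 1 with median centring (Lyl1) and 2 in the separate-channel fit (Lyl1 and Cd44). Member probes at least 2-fold in one direction on both arrays numbered 1 as reported, 2 with processed signals, 2 with negative controls, 2 with the deposited value table, and 1 to 3 with one array left out (3 without replicate 1).

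All kept probes called higher numbered 24 with processed signals, 292 with negative controls, 848 with median centring, 693 in the separate-channel fit and 13 with the value table, and those called lower 6, 197, 124, 540 and 4. Median centring moved the median of all kept probes to 0.12, and turned Ssbp2 to 0.21, Stat5b to 0.25, Kdm1a to 0.070, Hdac1 to 0.19, Mef2d to 0.18, Hdac7 to 0.33, Hyal2 to 0.071 and Cst3 to 0.082. Ezr turned to -0.031 with processed signals, -0.071 with running-median centring and -0.031 with the value table. Cd8b1, at 0.48 as reported, turned to -0.79 with running-median centring. Ratios of the brightest probes were not centred at 0 after loess. In the bin of kept probes that starts at a mean log2 intensity of 17 their median was 1.01. The cause was not tested. Leaving out an array leaves no residual degree of freedom, so counts of calls have no value there. No paired analysis was possible because there was none to add: the reported test is itself paired, with 1 deficient and 1 control sample on each array. Signals near background limit Tal1, Mef2c, Gfi1b and Hhex. Lmo2 was also dim, with processed signals of 70.3 to 131 beside 34.5 to 142 at the kept Hhex probe. So were the control signals of Cd34 (106 and 54.4) and Kit (129 and 98.6). The ratios of Lmo2, Cd34 and Kit were larger in size from the processed signals, so their sizes depend on the background correction.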
